A study of Arabidopsis thaliana with 6 samples.

Results

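Rubisco, the enzyme that fixes CO2 in the chloroplast stroma, is built from large subunits encoded in the chloroplast genome and small subunits encoded by a small family of nuclear genes. Rubisco activase is a nuclear-encoded AAA+ ATPase that removes inhibitory sugar phosphates from the Rubisco active site, and in Arabidopsis its pre-mRNA is known to be spliced into a longer alpha form, which carries a redox-sensitive extension, and a shorter beta form. The transcripts of the 4 small subunit genes, *RBCS1A* (AT1G67090), *RBCS1B* (AT5G38430), *RBCS2B* (AT5G38420) and *RBCS3B* (AT5G38410), and of Rubisco activase, *RCA* (AT2G39730), are described here. These 5 genes were taken by locus identifier from the 33314 genes in the table, a rule that uses no measured value, and all 5 passed the minimum of 20 counts over the 3 libraries that 16426 genes met.

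The study asked how *FIONA1* (*FIO1*), an enzyme that adds methyl groups to adenosine bases of RNA (m6A), affects transcripts and flowering, and it sequenced RNA molecules directly on Oxford Nanopore flow cells. The groups were *fio1-1*, a chemically induced splice-site allele of *FIO1*, *fio1-5*, a CRISPR deletion close to a splice site, and wild type Col-0, the background of both mutants. Whole seedlings of all 3 were harvested at 14 days on MS medium in long days, many seedlings were pooled per line, and each mutant is represented by 1 line. Each line has 2 labelled libraries in the series, of which 1 is Illumina and 1 Nanopore. The count columns name no platform, and they were taken to be Nanopore since that is how the study presents the deposited data. There was thus 1 library per genotype in the tables, so no difference below has a replicate check, no p-value was computed, and every interval (95%) covers counting error only.

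The libraries held 4351545 (*fio1-1*), 4682804 (*fio1-5*) and 4602841 (Col-0) estimated counts, the reads assigned to the isoforms of a gene by the study's pipeline and summed here. *FIO1* itself had 17 counts in *fio1-1* and 30 in *fio1-5*, against 25 in Col-0, which does not check the labels because both alleles alter the sequence of the transcript. Of the 3 green tissue markers, the light-harvesting gene *CAB1* had 177860 and 218453 counts in *fio1-1* and *fio1-5*, against 255151 in Col-0. Carbonic anhydrase *CA1* and the photosystem I antenna gene *LHCA1* were low in all libraries, with 17 to 38 and 139 to 280 counts. The 5 root markers summed to 19070 counts in *fio1-1* and 13358 in *fio1-5*, against 7670 in Col-0, a sum made up almost wholly of *PYK10*, a root beta-glucosidase gene (18449 and 12700 counts, against 7287 in Col-0). The root markers differed in direction. Like *PYK10*, AT5G47450 and *COBL9* had more counts in both mutants than in Col-0. AT5G47450 had 464 and 508 counts in *fio1-1* and *fio1-5*, against 205 in Col-0, and *COBL9* had 41 and 35, against 22 in Col-0. *IRT1*, an iron transporter gene, had 21 and 5 counts in *fio1-1* and *fio1-5*, against 45 in Col-0, and *SCR*, a root patterning gene, had 95 and 110, against 111 in Col-0. None of the 8 markers was at 0. In whole seedlings, fewer cells of a type and less RNA per cell cannot be told apart.

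All 5 genes lie on the minus strand of the TAIR10.1 assembly. *RBCS1A* stands alone at chr1:25048158-25049667, whereas *RBCS3B* (chr5:15376988-15378642), *RBCS2B* (chr5:15380907-15382071) and *RBCS1B* (chr5:15383167-15385320) form a tandem array of 8333 bases. The coding sequences of the tandem genes were 96.7% to 97.3% identical to each other and 89.9% to 90.1% identical to that of *RBCS1A*. The following 30-base windows, coding bases 13 to 42 of each gene (RefSeq, TAIR10.1), are shown because they hold the most variable stretch of the family, with 10 variable positions. Capitals mark those 10 positions in *RBCS1A*, and in the other genes the bases that differ from *RBCS1A*.
RBCS1A, chr1:25049208-25049237: atgCtctcTtcCGcTActAtggttGcCtcT
RBCS1B, chr5:15385114-15385143: atgctctcCtcTgcCGctGtggttAcctcC
RBCS2B, chr5:15381937-15381966: atgTtctcCtccAcCGctGtggttAcctcC
RBCS3B, chr5:15378265-15378294: atgctctcCtccgcCGctGtggttAcAtcC

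The tandem genes differed from *RBCS1A* at 7 or 8 of the 30 bases in this window, and many of those bases were shared among the tandem genes. At the other extreme, coding bases 394 to 423 were the same in all 4 genes, and a read or part of a read that covers only this stretch names no member. It is shown from *RBCS1A*.
RBCS1A, chr1:25048585-25048614: tgcaccgactccgctcaagtgttgaaggaa

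*RBCS1A* was by far the most abundant member. It had 41810 counts in *fio1-1* and 57331 in *fio1-5*, against 41644 in Col-0, which equals 6028 and 7586 TPM (a level scaled to transcript length and library size by the authors) against 6072 TPM. By TPM it ranked 11th, 8th and 10th among all genes in *fio1-1*, *fio1-5* and Col-0. *RBCS2B* had 4204 counts in *fio1-1* and 5371 in *fio1-5*, against 6972 in Col-0, or 900.5 and 1056 TPM against 1511 TPM. It was therefore highest in Col-0, whereas *RBCS1A* was highest in *fio1-5*. *RBCS1B* and *RBCS3B*, the outer genes of the array, were far below both. *RBCS1B* had 195 and 174 counts in *fio1-1* and *fio1-5*, against 190 in Col-0 (48.1, 36.1 and 43.4 TPM). *RBCS3B* had 112 and 170 counts in *fio1-1* and *fio1-5*, against 148 in Col-0 (23.7, 29.3 and 28.2 TPM).

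*RCA* was the lowest member in every library on the length-scaled TPM. It had 107 counts in *fio1-1* and 147 in *fio1-5*, against 137 in Col-0, or 9.05 and 11.4 TPM against 11.6 TPM. In Col-0 it ranked 6493rd among all genes by TPM. Per length, the order *RBCS1A*, *RBCS2B*, *RBCS1B*, *RBCS3B*, *RCA* was the same in *fio1-1*, *fio1-5* and Col-0. The closest neighbours per length were *RBCS1B* and *RBCS3B* in *fio1-5*, at 36.1 and 29.3 TPM, which rest on 174 counts (Poisson interval 149 to 202) and 170 counts (145 to 198). No spread between samples can be set beside that gap.

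**Figure D1:**
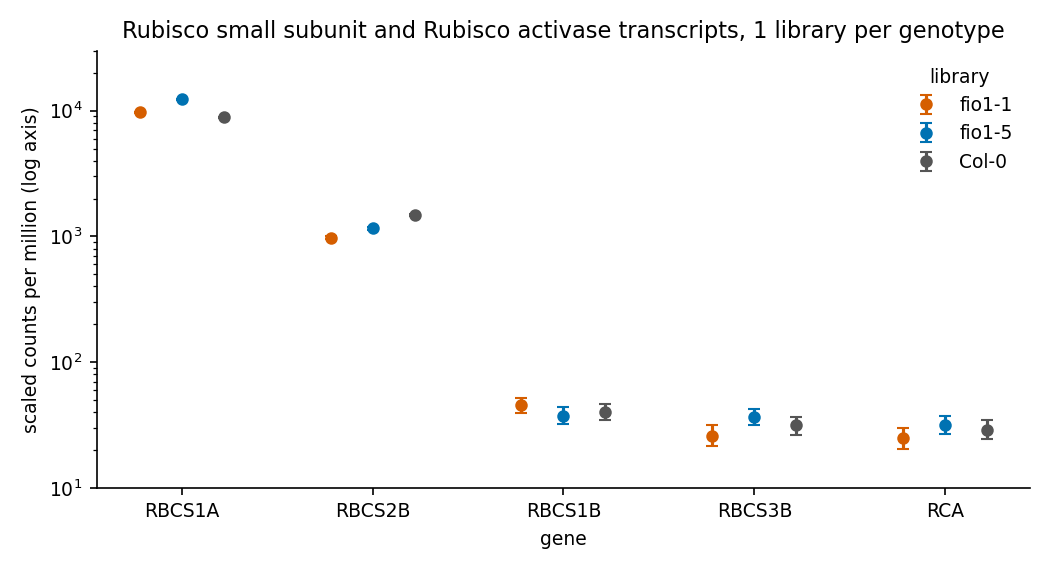
Scaled CPM (counts relative to library size, log axis) of the 5 genes in the *fio1-1*, *fio1-5* and Col-0 libraries, 1 library each, with exact Poisson 95% intervals that cover counting error only. *RBCS1A* lies at 9721 and 12383 in *fio1-1* and *fio1-5*, against 8841 in Col-0, and *RBCS2B* at 977.4 and 1160, against 1480 in Col-0. The other 3 genes lie between 24.9 and 45.3 in all libraries.

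The low level of *RCA* stood beside a property of its sequence. Of all 21-base words in the annotated *RCA* isoforms, 0.86% to 6.81% occur in no other transcript of the reference, since the isoforms repeat each other. For comparison, the share was 19.5% in RBCS1A.1, 53.9% in the only isoform of *RBCS2B* and 55.7% in RBCS1B.1. Across the genome, 0.46% to 0.57% of the 6141 genes whose most distinct isoform has at most 10% of such words reached 1000 counts in a library. Among the 5752 genes from 10% to 50% that share was 2.68% to 2.76%, and among the 18011 genes above 90% it was 2.71% to 2.81%. Of the 2161 genes from 50% to 90%, 3.05% to 3.42% reached 1000 counts. Median counts in a library were 4 to 5 in the genes of at most 10% and 15 to 16 from 10% to 50%. They were 0 from 50% to 90% and 5 to 7 above 90%. At most 0.051% of the words of an annotated *RCA* isoform occur in other genes. The repeats of *RCA* lie mostly among its own isoforms. Counts of these isoforms were summed for the gene, and whether shared reads were all counted before that sum is not known. *RBCS1A*, at 19.5%, had 41644 counts or more in each library. The part of shared sequence in the level of *RCA* was not tested, and the rule by which the authors assigned reads to isoforms is not given in the sources used here.

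**Figure D2:**
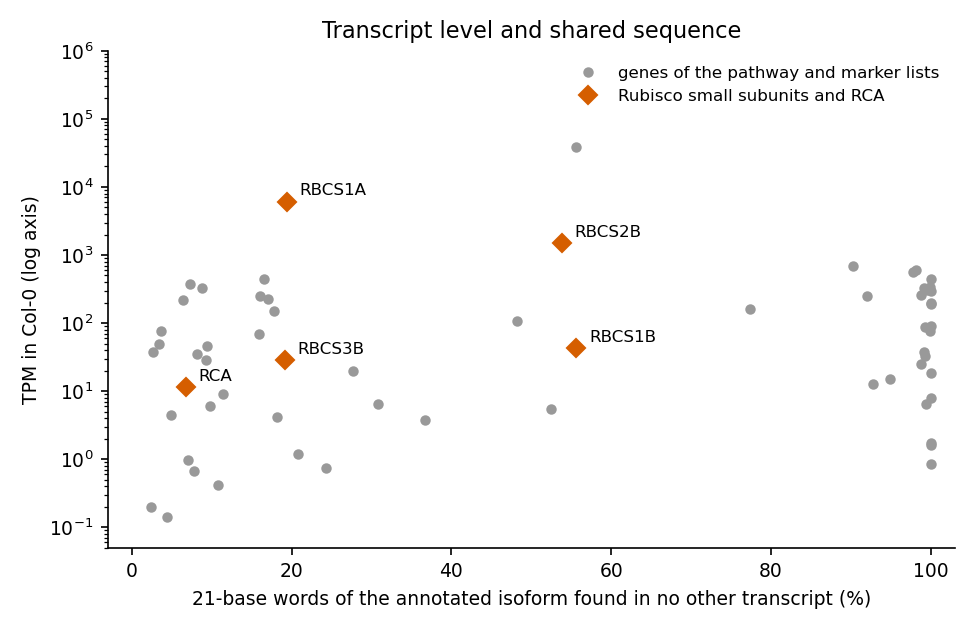
Share of 21-base words of a gene's most distinct annotated isoform found in no other transcript (%), against TPM in Col-0 (log axis), for the 5 genes (diamonds) and the genes of the pathway and marker lists (circles). *RCA* sits at 6.81% and 11.6 TPM, *RBCS1A* at 19.5% and 6072 TPM, and circles of 10% or less range from 0.141 TPM (*CPN60A2*) to 380.6 TPM (*GGAT1*).

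Against Col-0, neither *RBCS1A* nor any other member reached a 2-fold difference. In *fio1-1*, *RBCS1A* had a log2 ratio of scaled counts of 0.14 (interval 0.12 to 0.16), a small excess that turned to −0.01 on the deposited TPM. In *fio1-5* the log2 ratio was 0.49 (0.47 to 0.50), or 1.40-fold, and stayed above 0 on every scaling. Between the mutants, *RBCS1A* was 1.27-fold higher in *fio1-5* than in *fio1-1* (log2 0.35, 0.33 to 0.37). On the deposited TPM the median of all tested genes was itself shifted, to −0.14 in *fio1-1* and −0.15 in *fio1-5*, against −0.01 and 0.01 on the scaled counts.

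*RBCS2B* was lower in both mutants. Its log2 ratio was −0.60 (−0.65 to −0.54) in *fio1-1* and −0.35 (−0.40 to −0.30) in *fio1-5*, so that it was 1.51-fold and 1.28-fold higher in Col-0. The interval between the mutants also lay away from 0, with *fio1-5* above *fio1-1* by 0.25 (0.19 to 0.31). Among the 16426 genes tested, 12.5% had a lower ratio than *RBCS2B* in *fio1-1* and 23.1% in *fio1-5*. The green tissue marker *CAB1* was also lower in both mutants, at −0.39 (−0.40 to −0.38) in *fio1-1* and −0.20 (−0.21 to −0.19) in *fio1-5*, but the other green markers did not follow it in *fio1-5*, where *LHCA1* was at 0.63 (0.36 to 0.91) and *CA1* at −0.01 (−0.71 to 0.68). In *fio1-1*, *LHCA1* was at −0.27 (−0.60 to 0.05) and *CA1* at −1.01 (−1.95 to −0.17). Of the 5 root markers, 3 were above 0 in *fio1-1* and 4 in *fio1-5*. *PYK10* was at 1.47 and 0.83, AT5G47450 at 1.31 and 1.33, and *COBL9* at 1.01 and 0.68 (−0.12 to 1.53). *IRT1* was at −0.95 and −3.02. Both intervals of *SCR* included 0, at −0.09 (−0.50 to 0.31) and 0.01 (−0.38 to 0.41). Among all tested genes, 49.5% were above 0 in *fio1-1* and 50.4% in *fio1-5*. The part of tissue make-up in the level of *RBCS2B* was not tested.

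For the remaining members no difference from Col-0 was detectable at this depth. *RBCS1B* had log2 ratios of 0.17 (−0.13 to 0.46) in *fio1-1* and −0.10 (−0.41 to 0.20) in *fio1-5*. *RBCS3B* was at −0.27 (−0.64 to 0.09) in *fio1-1* and 0.22 (−0.10 to 0.55) in *fio1-5*. *RCA* was at −0.22 (−0.60 to 0.15) in *fio1-1* and 0.13 (−0.22 to 0.47) in *fio1-5*. All 6 intervals include 0, and none reaches a 2-fold difference. Between the mutants, *RBCS3B* was 0.49 (0.14 to 0.85) higher in *fio1-5* than in *fio1-1*, and *RCA* 0.35 (−0.02 to 0.73).

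By these counts, 0 of the 5 genes were 2-fold higher or lower in any comparison. In the whole table, 9.5% of the tested genes were at least 2-fold higher and 4.29% at least 2-fold lower in *fio1-1* than in Col-0. In *fio1-5* against Col-0 the shares were 7.43% higher and 4.3% lower, and in *fio1-5* against *fio1-1* they were 3.26% higher and 4.96% lower. With 5 genes, a count of 0 lies near these backgrounds. The median log2 ratio of the 5 genes was −0.22 in *fio1-1* and 0.13 in *fio1-5*, against −0.01 and 0.01 for all tested genes.

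**Figure D3:**
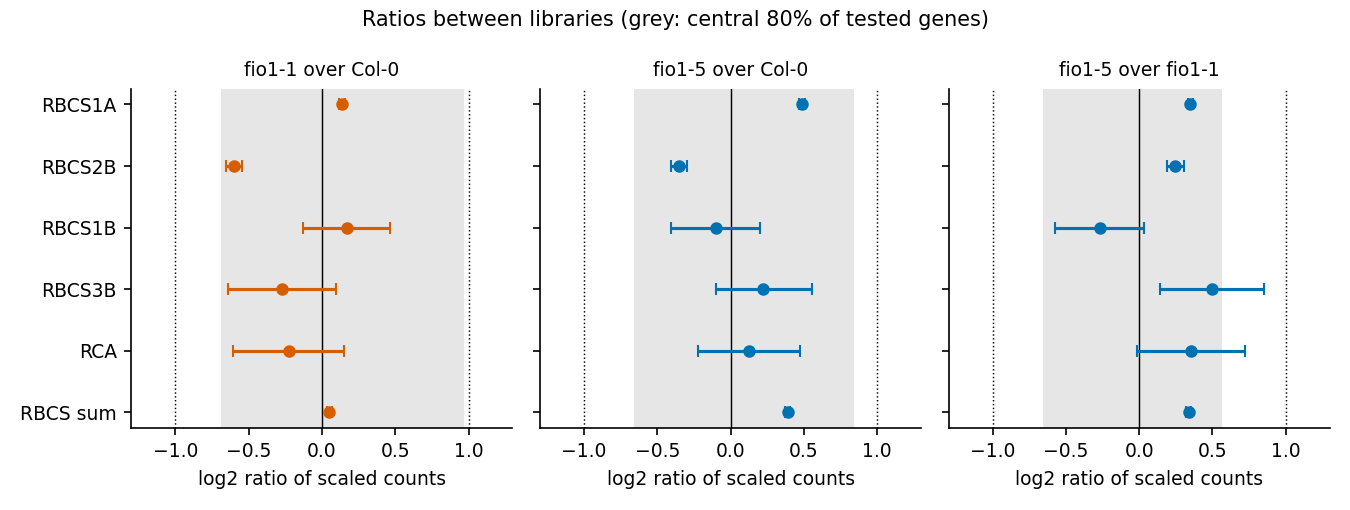
Log2 ratios of scaled counts with 95% intervals of counting error for the 5 genes and for the sum of the 4 small subunit genes, in *fio1-1* over Col-0, *fio1-5* over Col-0 and *fio1-5* over *fio1-1*. The grey band holds the central 80% of tested genes (−0.69 to 0.97, −0.66 to 0.84 and −0.66 to 0.57) and dotted lines mark 2-fold. *RBCS2B* lies at −0.60 and −0.35 against Col-0, and *RBCS1A* at 0.14 (−0.01 on the deposited TPM) and 0.49.

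Together the small subunit genes held 1.06% of all counts in *fio1-1* and 1.35% in *fio1-5*, against 1.06% in Col-0. The log2 ratio of their sum was 0.05 (0.03 to 0.07) in *fio1-1*, with a sign that reversed to −0.13 on the deposited TPM, and 0.39 (0.37 to 0.41) in *fio1-5*. The make-up of this pool differed more than its size in *fio1-1*. *RBCS1A* provided 90.3% (89.99% to 90.53%) of small subunit counts in *fio1-1* and 90.9% (90.7% to 91.2%) in *fio1-5*, against 85.1% (84.7% to 85.4%) in Col-0, and the exact binomial intervals of the mutants do not overlap that of Col-0. *RBCS2B* provided 9.08% in *fio1-1* and 8.52% in *fio1-5*, against 14.2% in Col-0. Thus there were 9.95 and 10.7 *RBCS1A* counts per *RBCS2B* count in *fio1-1* and *fio1-5*, against 5.97 in Col-0. On the deposited TPM this ratio was 6.69 and 7.18, against 4.02 in Col-0.

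The 3 tandem genes summed to 4511 counts in *fio1-1* and 5715 in *fio1-5*, against 7310 in Col-0. The log2 ratio of the sum was −0.57 (−0.62 to −0.51) in *fio1-1* and −0.33 (−0.38 to −0.28) in *fio1-5*, which follows from *RBCS2B* alone, since it supplies most of these counts. Of the 21-base words, 46.1% in the isoform of *RBCS2B*, 31.3% in RBCS3B.1, 23.4% in RBCS1B.1 and 10.6% in RBCS1A.1 occur in other genes. The values of all 4 genes taken singly are uncertain to the extent that reads were assigned to another member, which was not tested.

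Against Col-0, the isoforms of *RCA* showed the widest differences in share among the members. The table lists 3 annotated *RCA* isoforms and a further isoform, t1, which is outside the annotation. RCA.1, with 474 codons, encodes the alpha form and RCA.2, with 446 codons, the beta form. The difference arises from alternative donor ends of exon 6, shown here with the 11 bases in capitals that RCA.2 keeps in its exon and RCA.1 leaves in the intron (minus strand).
RCA, chr2:16571173-16571202: gaactttctacgGTAAAACAGAGgtttgaa

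Both donors begin with GT, the usual start of an intron, and RCA.3 (441 codons) retains the whole intron in its last exon. The gene model of t1 was not used here. Its length of 2041 bases was recovered from the ratio of counts to TPM, a step that returned the reference length within 1 base for 99.3% of annotated isoforms over 600 bases in each library. For comparison, RCA.1, RCA.2 and RCA.3 are 1977, 1988 and 1928 bases long.

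RCA.2 had 60 counts in *fio1-1* and 66 in *fio1-5*, against 39 in Col-0. RCA.3 had 30 counts in *fio1-1* and 45 in *fio1-5*, against 20 in Col-0. The t1 isoform had 16 counts in *fio1-1* and 36 in *fio1-5*, against 78 in Col-0. Thus t1 was lower and RCA.2 higher in both mutants, whereas the excess of RCA.3 was beyond counting error only in *fio1-5*, with log2 ratios of 0.70 (−0.15 to 1.61) in *fio1-1* and 1.17 (0.41 to 2.03) in *fio1-5*. The alpha form RCA.1 had 1 count in *fio1-1* and 0 counts in *fio1-5* and in Col-0. By counting error alone, the exact binomial upper limits of these zeros are 2.48% of *RCA* counts in *fio1-5* and 2.66% in Col-0. Only 0.92% of the 21-base words of RCA.1 are its own, so that reads of RCA.1 could have been assigned elsewhere or left out, which was not tested.

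As a share of *RCA* counts, t1 took 15.0% (8.80% to 23.1%) in *fio1-1* and 24.5% (17.8% to 32.3%) in *fio1-5*, against 56.9% (48.2% to 65.4%) in Col-0. The intervals of both mutants lie below that of Col-0 and overlap each other. RCA.2 took 56.1% (46.1% to 65.7%) in *fio1-1* and 44.9% (36.7% to 53.3%) in *fio1-5*, against 28.5% (21.1% to 36.8%) in Col-0, and the interval of *fio1-5* just overlaps that of Col-0 whereas that of *fio1-1* does not. RCA.3 took 28.0% (19.8% to 37.5%) in *fio1-1* and 30.6% (23.3% to 38.7%) in *fio1-5*, against 14.6% (9.15% to 21.6%) in Col-0. Here again only 1 of the mutants, *fio1-5*, has an interval apart from that of Col-0. These shares are not independent, since a smaller share of t1 leaves larger ones for the rest. Among annotated isoforms alone, RCA.2 took 65.9% in *fio1-1* and 59.5% in *fio1-5*, against 66.1% in Col-0. RCA.3 took 33.0% and 40.5% of them, against 33.9% in Col-0.

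The same shift appeared in levels. The log2 ratio of t1 was −2.12 (−3.03 to −1.37) in *fio1-1* and −1.08 (−1.70 to −0.50) in *fio1-5*, or 4.45-fold and 2.13-fold higher in Col-0. The annotated *RCA* isoforms together had 91 counts in *fio1-1* and 111 in *fio1-5*, against 59 in Col-0, with log2 ratios of 0.75 (0.27 to 1.25) and 0.93 (0.47 to 1.42). The isoforms of *RCA* thus differed in opposite directions within a sum whose interval included 0. RCA.2 alone was at 0.74 (0.15 to 1.37) in *fio1-1* and 0.78 (0.19 to 1.39) in *fio1-5*. With the long shared sequence of these isoforms, how reads were divided among them was not tested.

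Differences of this size in isoform shares were uncommon in the table. Among 1105 genes with at least 100 counts in each library and more than 1 isoform counted, 1.09% had an isoform whose share was at least 20 percentage points apart in *fio1-1* and Col-0, and the shares were 0.905% for *fio1-5* and Col-0 and 0.724% for *fio1-5* and *fio1-1*. These limits were chosen after the values were seen. Of the 4 members compared, *RCA* passed against Col-0 in both mutants, with 41.9 and 32.4 points in *fio1-1* and *fio1-5*. In all, 5 genes passed in both mutants, namely *RCA*, AT3G25840, *UTR6* (AT3G59360), AT5G22875 and AT5G63000. All 5 had only 107 to 215 counts in each library, near the minimum of 100, where counting error in a share is widest. The genes compared include far deeper ones, so they are no background matched to *RCA* in depth. *RBCS3B* passed between the mutants, with 21.2 points in *fio1-5* against *fio1-1*, and lay just under the limit in *fio1-1* against Col-0, with 19.1 points. The median gene differed by 0.65 points in *fio1-1* and 0.66 in *fio1-5*.

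**Figure D4:**
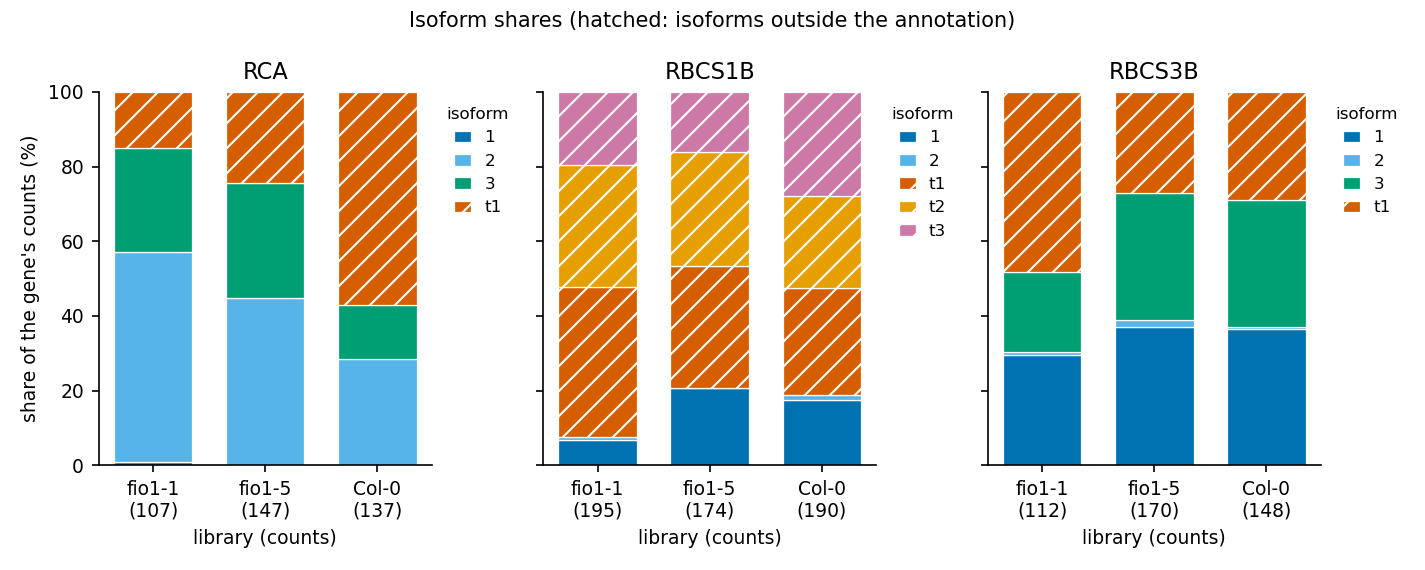
Isoform shares (% of the gene's counts, stacked to 100) of *RCA*, *RBCS1B* and *RBCS3B* in *fio1-1*, *fio1-5* and Col-0, with the counts under each bar and hatching for isoforms outside the annotation. In *RCA*, t1 takes 15.0% in *fio1-1* and 24.5% in *fio1-5*, against 56.9% in Col-0. In *RBCS3B*, t1 takes 48.2% in *fio1-1* and 27.1% in *fio1-5*, against 29.1% in Col-0.

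The small subunit genes differed from each other in how far they used isoforms outside the annotation. In *RBCS1A* the annotated isoform RBCS1A.1 held 99.94% of counts in *fio1-1* and 99.95% in *fio1-5*, against 99.96% in Col-0, and isoforms outside the annotation had 14 and 11 counts in *fio1-1* and *fio1-5*, against 11 in Col-0. *RBCS2B* had a single isoform in the table. In *RBCS1B*, by contrast, such isoforms (t1, t2 and t3) held 92.3% (87.6% to 95.6%) of counts in *fio1-1* and 79.3% (72.5% to 85.1%) in *fio1-5*, against 81.1% (74.7% to 86.4%) in Col-0. Over all genes, isoforms outside the annotation held 0.94% of counts in *fio1-1* and 0.87% in *fio1-5*, against 0.96% in Col-0.

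RBCS1B.1, whose model of 1894 bases is long for a small subunit transcript, had 13 counts in *fio1-1* and 36 in *fio1-5*, against 33 in Col-0. The isoforms outside its annotation were shorter, with recovered lengths of 926 (t1), 701 (t2) and 890 bases (t3). The annotated isoforms of *RBCS1B* together were lower in *fio1-1* than in Col-0 (log2 −1.11, −2.11 to −0.23) and even with it in *fio1-5* (0.02, −0.68 to 0.73). The other isoforms were at 0.36 (0.04 to 0.68) in *fio1-1* and −0.13 (−0.48 to 0.21) in *fio1-5*. In *RBCS1B*, t3 had 38 and 28 counts in *fio1-1* and *fio1-5*, against 53 in Col-0.

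*RBCS3B* showed a like division in *fio1-1*. Its t1 isoform, of 791 bases, had 54 counts in *fio1-1* and 46 in *fio1-5*, against 43 in Col-0. The annotated isoforms had 58 counts in *fio1-1* and 124 in *fio1-5*, against 105 in Col-0, with log2 ratios of −0.72 (−1.21 to −0.25) and 0.26 (−0.12 to 0.65). Hence t1 took 48.2% (38.7% to 57.9%) of *RBCS3B* counts in *fio1-1* and 27.1% (20.5% to 34.4%) in *fio1-5*, against 29.1% (21.9% to 37.1%) in Col-0. Only the share in *fio1-1* stood apart from Col-0 by its interval.

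Genes of at least 1000 counts with the pair of ratios nearest to that of *RBCS1A* were, by Euclidean distance among 2311 genes, *PSAN* (AT5G64040), which encodes a photosystem I subunit, AT4G28780 and *iPGAM1* (AT1G09780), a phosphoglycerate mutase. *PSAN* had log2 ratios of 0.14 in *fio1-1* and 0.49 in *fio1-5*, at a distance of 0.00138. Nearest to *RCA* were *BASS2* (AT2G26900), a plastid pyruvate transporter, at −0.23 and 0.12, *emb1473* (AT1G78630), a plastid ribosomal protein gene, and AT4G12060. *RCA* itself had 391 counts over the 3 libraries, below the minimum set for its neighbours. Its intervals (−0.60 to 0.15 in *fio1-1* and −0.22 to 0.47 in *fio1-5*) are far wider than these distances, 0.0020 to 0.0135. Which genes came nearest to *RCA* thus lies within counting error. There were 21 genes within a distance of 0.1 of *RBCS1A* and 63 within 0.1 of *RCA*. The genes nearest to *RBCS2B* were looked up after its values were seen. They were *PSAE-2* (AT2G20260), a photosystem I subunit gene, *GAMMA-H2AX* (AT1G54690) and *GGH2* (AT1G78680). *PSAE-2* was at −0.58 in *fio1-1* and −0.34 in *fio1-5*, *GAMMA-H2AX* at −0.58 and −0.33, and *GGH2* at −0.54 and −0.36. There were 11 genes within 0.1 of *RBCS2B*. Such likeness rests on 2 ratios that share the Col-0 library.

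Genes that assemble and maintain Rubisco had no ratio past 2-fold against Col-0 where they could be tested, although some intervals reached past 2-fold. Of 19 listed genes, 16 passed the minimum count, and 0 of them were 2-fold higher or lower in *fio1-1* or in *fio1-5*. Their median log2 ratio was −0.14 in *fio1-1* and 0.18 in *fio1-5*. In *fio1-1*, 4 of the 16 lay above 0 and 12 below, and in *fio1-5*, 12 lay above 0 and 4 below. Of all tested genes, beside which this and the next 2 lists can be set, 49.5% lay above 0 in *fio1-1* and 50.4% in *fio1-5*. At least 2-fold higher than Col-0 were 9.5% of all tested genes in *fio1-1* and 7.43% in *fio1-5*. At least 2-fold lower were 4.29% and 4.3%. The untested genes were *CPN60A2*, *CPN60B3* and *rbcL*, the chloroplast gene of the large subunit, which had 5 and 2 counts in *fio1-1* and *fio1-5*, against 7 in Col-0.

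The most abundant of these genes, per length, were *BSD2*, *CPN20* and *RBCX1*. *BSD2*, a chaperone of large subunit assembly, had 248.6 and 338.3 TPM in *fio1-1* and *fio1-5*, against 307.9 TPM in Col-0, with log2 ratios of scaled counts of −0.16 (−0.28 to −0.05) and 0.30 (0.20 to 0.41). *RBCX1*, an assembly chaperone of the large subunit, was lower in both mutants, at −0.71 (−0.87 to −0.56) and −0.46 (−0.60 to −0.31), the same directions as *RBCS2B*. *CPN20*, a co-chaperonin of the chloroplast, was at −0.14 (−0.26 to −0.01) in *fio1-1* and 0.02 (−0.10 to 0.14) in *fio1-5*. Values of *RBCX1* ran to 162.2 and 191.5 TPM in *fio1-1* and *fio1-5*, against 294.8 TPM in Col-0.

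In the Calvin-Benson cycle, which uses the product of Rubisco, 18 of 19 listed genes were tested (*CP12-1* was not). In *fio1-1*, 13 had a ratio below 0 and the median was −0.32, whereas in *fio1-5* the list was split 9 and 9 with a median of 0.01. *GAPA2*, a subunit gene of plastid glyceraldehyde-3-phosphate dehydrogenase, was the only gene past 2-fold lower, at −1.05 (−1.98 to −0.21) in *fio1-1*, on 17 counts against 39 in Col-0. *FBA1*, a plastid aldolase gene, was the only gene past 2-fold higher, at 1.57 (0.67 to 2.64) in *fio1-5*, on 39 counts against 13 in Col-0. Both rest on few counts. Of the most abundant genes of the cycle, *GAPA1* was at −0.31 and −0.05 in *fio1-1* and *fio1-5*, *FBA2* at −0.26 and 0.10, and *CP12-2*, a small linker protein that binds and inhibits enzymes of the cycle, at −0.54 and −0.38.

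Photorespiration recycles the product that Rubisco makes when it reacts with O2. All 13 listed genes were tested, and 0 had a ratio past 2-fold in either mutant, beside the shares of all tested genes given above. Their median was −0.21 in *fio1-1* and −0.12 in *fio1-5*, with 9 and 8 of 13 below 0. *GDCH*, the H protein gene of glycine decarboxylase, was lower in both mutants, at −0.68 (−0.77 to −0.59) and −0.28 (−0.37 to −0.20). *SHM1*, mitochondrial serine hydroxymethyltransferase, was at −0.15 (−0.23 to −0.08) in *fio1-1* and 0.46 (0.40 to 0.53) in *fio1-5*. *GGAT1*, peroxisomal glutamate:glyoxylate aminotransferase, was at −0.29 (−0.36 to −0.23) and −0.03 (−0.09 to 0.03).

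**Figure D5:**
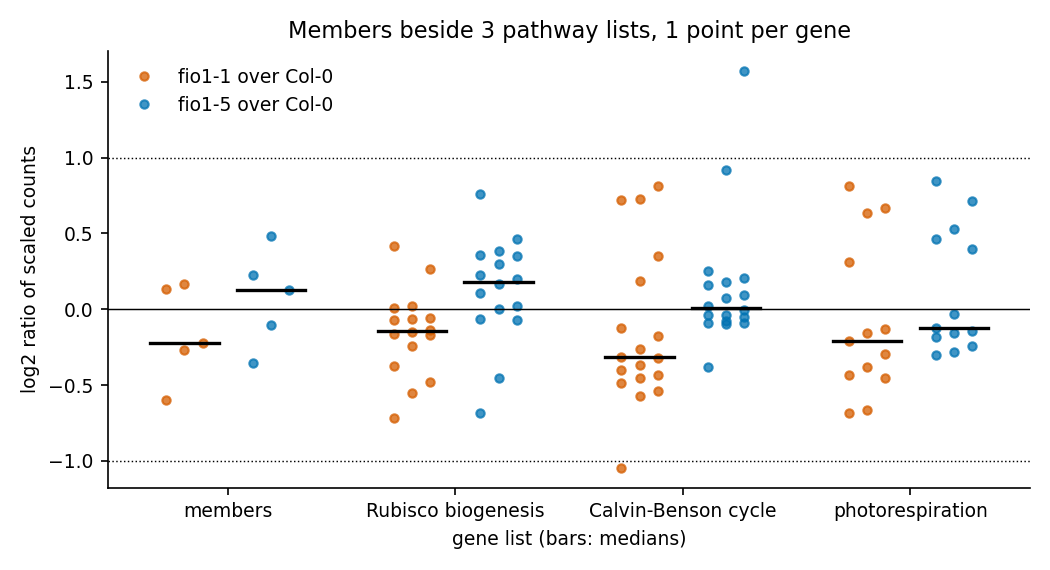
Log2 ratios of scaled counts in *fio1-1* and *fio1-5* over Col-0, 1 point per tested gene, for the 5 members and 3 pathway lists, with medians as bars and 2-fold as dotted lines. Member medians lie at −0.22 in *fio1-1* and 0.13 in *fio1-5*, and the medians of the Rubisco biogenesis list at −0.14 and 0.18. Only *GAPA2* (−1.05 in *fio1-1*) and *FBA1* (1.57 in *fio1-5*) pass a dotted line.

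In direct comparison of the mutants, 4 of the 5 members had a ratio of *fio1-5* over *fio1-1* above 0. The intervals of *RBCS1A*, *RBCS2B* and *RBCS3B* lay above 0, but these intervals cover counting error only. The share of all tested genes with such an interval was not computed, so the intervals do not set the members apart from other genes. *RCA* was at 0.35 (−0.02 to 0.73) and *RBCS1B* at −0.27 (−0.57 to 0.03). The lists ran the same way, with 15 of 16 Rubisco biogenesis genes, 16 of 18 Calvin-Benson genes and 11 of 13 photorespiration genes above 0, and medians of 0.31, 0.32 and 0.15. Of all tested genes 50.4% lay above 0, with a median of 0.0033. The green tissue markers summed to 218770 counts in *fio1-5*, against 178016 in *fio1-1*, unscaled and almost wholly from *CAB1* (218453 and 177860). On scaled counts *CAB1* was at 0.19 (0.18 to 0.20), *LHCA1* at 0.90 (0.61 to 1.21) and *CA1* at 1.00 (0.15 to 1.94). Whether the mostly higher values in *fio1-5* reflect the alleles or the 2 libraries cannot be told apart.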

How the data were processed

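Seedling RNA of 3 genotypes was sequenced directly on Nanopore flow cells. As the study's methods describe it, reads were base called with Guppy, filtered with Nanofilt, corrected with Fclmr2 and mapped with Minimap2, and the submitters' processing notes give minimap2 version 2.17-r941 and SAMtools 1.10. The authors deposited an estimated count (expected count, 39.3% to 41.8% of values above 0 not whole within 0.001) and a TPM value for each of 56591 isoforms. The tool, the annotation, the strand handling and the rule for reads shared by isoforms or paralogs are not given in the sources used here. The columns name no platform and were read as the 3 Nanopore libraries, since the study describes this series so. Columns named *fio1-2* are *fio1-5*, as the labels explain. Authors' correlation tables were not used.

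Counts were summed per gene, rounded and scaled with TMM factors of edgeR 4.0.16 (0.988, 0.989 and 1.02 for *fio1-1*, *fio1-5* and Col-0) in R 4.3.3. DESeq2 1.42.0 size factors, total counts, deposited TPM, 2 added counts, other isoform choices and other limits were alternatives. A floor of 3 counts equals 0.698, 0.648 and 0.637 CPM. Log2 ratios have 0.5 counts added, and their intervals are exact conditional binomial intervals of the ratio without it. Shares have Clopper-Pearson and counts Poisson intervals at 95%. Simulated counts were Poisson draws without spread between samples, with 200 genes changed 4-fold among 16426. The 2-fold limit was passed by 97.0% of the changed genes in *fio1-1* against Col-0, 98.0% in *fio1-5* against Col-0 and 98.5% when the mutants were compared. This checks the calculation only, and not differences as small as those of the member genes. Python 3.11.15, Biopython 1.88 and MAFFT 7.526 served for the rest, and all member and list genes were matched by locus identifier to RefSeq TAIR10.1.

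Text names all members, each list's genes past 2-fold in a mutant and its 3 of highest mean TPM, the 3 genes nearest to *RBCS1A* and to *RCA*, and genes said to be chosen later. Members, lists and comparisons were chosen with earlier results of these data known. No replicate could be left out, with 1 library per genotype.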

Additional observations from a re-analysis of the deposited data

How the results depend on the processing

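No paired analysis was possible because each genotype has 1 library, and no library could be left out. RCA.t1 shares stayed within their intervals on the deposited TPM. For *RCA*, annotated isoforms alone gave log2 ratios of 0.75 in *fio1-1* and 0.93 in *fio1-5* and RCA.2 alone 0.74 and 0.78, since both leave out t1. The small subunit sum was at 0.0012 in *fio1-1* and 0.34 in *fio1-5* with total-count scaling, and at −0.13 and 0.19 on the deposited TPM, where *fio1-5* over *fio1-1* gave 0.31. On that scale *RBCS1A* reversed to −0.0103 in *fio1-1*, and its share of small subunit TPM was 86.1% in *fio1-1* and 87.1% in *fio1-5*, against 79.3% in Col-0. The cause was not tested.

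Counts of genes past 2-fold, higher and lower, depend on the limits. With no count filter they were 3627 and 2473 (*fio1-1* over Col-0), 3264 and 2376 (*fio1-5* over Col-0), and 2394 and 2545 (*fio1-5* over *fio1-1*). With at least 100 counts they were 621 and 164, 407 and 202, and 64 and 286. A 1.5-fold limit gave 2917 and 2131, 2570 and 1984, and 1588 and 1976, and a 4-fold limit 366 and 96, 209 and 101, and 77 and 163. The deposited TPM gave 953, 636 and 236 higher. Depth limits *RBCS1B*, *RBCS3B* and *RCA*, whose intervals against Col-0 span 0, and a single library per genotype limits all values.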

Other observations

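Beside *RCA*, some other genes of the lists for enzymes that are well known in leaves had very few counts. These genes were picked after their values were seen. *CAT2*, a peroxisomal catalase gene, had 10 and 11 counts in *fio1-1* and *fio1-5*, against 6 in Col-0. *PGLP1*, the phosphoglycolate phosphatase gene that starts photorespiration, had 9 and 10 counts, against 6 in Col-0, and *GLYK*, the glycerate kinase gene that ends it, had 13 and 13, against 9 in Col-0. The share of 21-base words found in no other transcript was 10.7% in *CAT2*, 7.74% in *PGLP1* and 24.3% in *GLYK*. In contrast, *GGAT1*, at 7.23%, had 3732 and 4831 counts in *fio1-1* and *fio1-5*, against 5014 in Col-0. The part of shared sequence in these counts was not tested. Within the cycle, *FBA1* and *FBA2* had similar shares (20.8% and 16.5%) and far different levels, with 20 and 39 counts of *FBA1* in *fio1-1* and *fio1-5*, against 13 in Col-0, beside 3397 and 4691 counts of *FBA2*, against 4468 in Col-0.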
